A study of Mus musculus with 2 samples.

Results

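AP-1 is a dimer of basic leucine zipper (bZIP) proteins that binds DNA, and its core subunits come from the Jun family (Jun, Junb, Jund) and the Fos family (Fos, Fosb, Fosl1, Fosl2). Their RNAs, with those of the bZIP factor Atf3, the zinc finger factor Egr1 and the nuclear protein Ier2, make up the 10 genes described here. They were taken by symbol from the gene table of each library, and all 10 were found among the 43346 Ensembl genes in each table. All libraries came from 1 kind of tissue, urinary bladder of C57BL/6J mice at 8 weeks of age, with littermates of both sexes and no treatment named. There were 2 libraries, stranded and paired-end, of polyadenylated RNA over 200 nucleotides with ribosomal RNA removed and spike-in RNA added. The labels number them as biological replicates 1 and 2 but give both the same donor entry, so the spread between them may be partly technical. With 1 library on each side, no test of a difference between them was possible and no p-value is given.

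Immediate early genes are switched on within minutes of a stimulus without new protein synthesis, through mitogen-activated kinases that act on factors already present. Fos proteins do not form stable dimers with each other and bind DNA mainly as partners of Jun proteins, whereas Jun proteins also pair among themselves. In the bladder these genes are known to respond to stretch, outlet obstruction and injury. They also respond to tissue handling and dissection, so a level in resting tissue is a level in tissue as it was collected.

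Deposited expected counts summed to 104610979 fragments in replicate 1 and 111741334 fragments in replicate 2, of which 5.01% and 5.98% fell on rows that are not Ensembl genes. Markers of the labelled tissue were present at 1 TPM (transcripts per 1000000) or more in both libraries. These were all 6 smooth muscle markers, all 6 superficial urothelium markers and all 4 genes listed for basal urothelium. Neutrophil markers were near 0, with 0 of 4 at 1 TPM in both libraries and Ly6g listed at 0.

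Of the 10 genes, 8 reached 1 TPM in both libraries, against 32.7% of all Ensembl genes. Fosb reached 1 TPM in replicate 2 alone, and Fosl1 in neither. TPM is scaled for transcript length, so levels below compare genes on that scale. Junb and Jund had the highest TPM and stood at 78.3 ± 15.9 TPM and 58.6 ± 9.07 TPM (SD, n = 2). Fosl2, which encodes Fra-2, led the Fos family at 34.6 ± 1.24 TPM and lay above Fos itself at 23.9 ± 5.53 TPM (SD, n = 2). The 10 genes together held 234 TPM in replicate 1, against 273 TPM in replicate 2, which was 0.0249% and 0.0296% of all gene TPM.

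**Figure D1:**
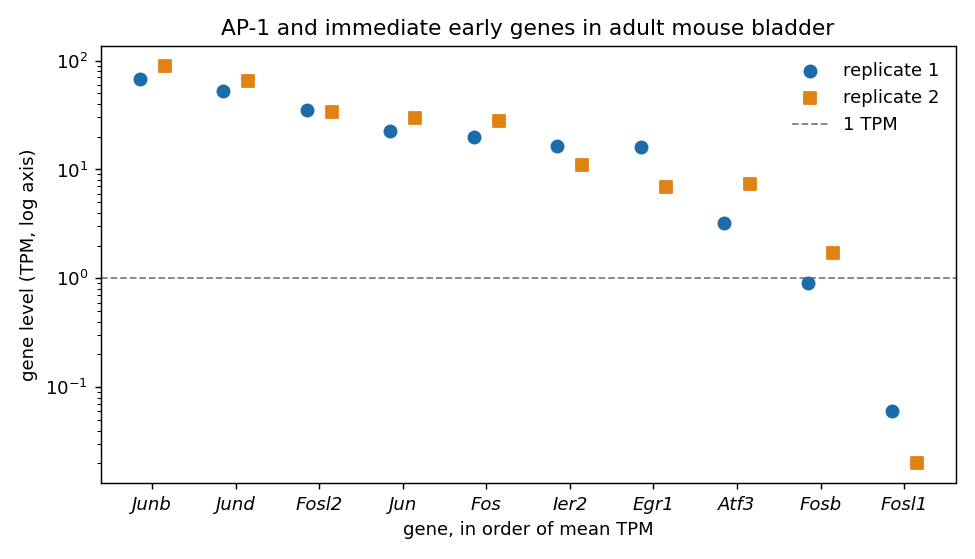
Level of each of the 10 genes in TPM on a log axis, with genes in order of mean TPM. Circles are replicate 1, squares are replicate 2 and the dashed line marks 1 TPM. Junb stood highest in both libraries at 67.0 and 89.5 TPM. The symbols for Fosl1 (0.06 and 0.02 TPM, from 7 and 2 expected counts), Egr1 and Atf3 lie far apart.

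The Jun family encodes the main partners of the Fos proteins. Junb, often a brake on proliferation, had 67.0 TPM in replicate 1 and 89.5 TPM in replicate 2. Jund, which is expressed in many resting tissues, had 52.2 TPM in replicate 1 and 64.99 TPM in replicate 2. Jun, the founding member and a driver of the cell cycle, had 22.6 TPM in replicate 1 and 29.7 TPM in replicate 2. All 3 were lower in replicate 1, with log2 ratios of replicate 1 over replicate 2 of -0.41 for Junb, -0.31 for Jund and -0.39 for Jun. The composition of the family was close to equal in the libraries: Junb held 47.3% in replicate 1 and 48.6% in replicate 2 of the summed TPM, Jund 36.8% and 35.3%, and Jun 15.9% and 16.1%. Junb exceeded Jun by a ratio of 2.97 in replicate 1 and 3.01 in replicate 2. Ranked by mean level among all genes averaging 1 TPM or more, Junb was at or above 89.8% of genes, Jund 85.6% and Jun 67.8%.

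In the Fos family the makeup differed more between the libraries. Fosl2 had 35.5 TPM in replicate 1 and 33.8 TPM in replicate 2, a log2 ratio of 0.07. Fos, the classic immediate early gene, had 19.9 TPM in replicate 1 and 27.8 TPM in replicate 2, a log2 ratio of -0.47. Fosl2 therefore stood at 1.78 times Fos in replicate 1 and 1.22 times Fos in replicate 2. It held 62.9% and 53.4% of the family's summed TPM, and Fos held 35.3% and 43.9%. Fosb, whose short form accumulates in neurons under repeated stimulation, had 0.90 TPM in replicate 1 and 1.71 TPM in replicate 2. Fosl1, which encodes Fra-1, a subunit common in migrating and tumour cells, had 0.06 TPM in replicate 1 and 0.02 TPM in replicate 2. That is 7 and 2 expected counts, a ratio per library total of 3.70 with a 95% exact counting interval of 0.705 to 36.5, so no difference in Fosl1 was detectable at this depth.

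Summed over families, Jun RNAs came to 142 TPM in replicate 1, with 184 TPM in replicate 2, and Fos RNAs came to 56.4 TPM and 63.3 TPM. The Jun to Fos ratio was 2.51 in replicate 1 and 2.91 in replicate 2, or 2.71 ± 0.282 (SD, n = 2). This ratio is of RNA per length and not of protein. Expected counts without length scaling gave a mean ratio of 1.51, since the quantified Fosl2 transcript of 5855 bases is the longest of the 10 genes and that of Junb has 1840 bases.

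The remaining genes, Egr1, Ier2 and Atf3, lie outside the Jun and Fos families. Egr1, a zinc finger activator induced through serum response factor, had 15.9 TPM in replicate 1 and 6.94 TPM in replicate 2, from 3774 and 1765 expected counts. Ier2, which encodes a nuclear protein, had 16.3 TPM in replicate 1 and 11.03 TPM in replicate 2. Atf3, a stress-induced bZIP factor that mostly represses as a homodimer, had 3.21 TPM in replicate 1 and 7.34 TPM in replicate 2, from 441 and 1107 expected counts. Egr1 and Ier2 were thus high in the library in which Atf3 and Fos were low. Set against Fos within each library, Egr1 stood at 0.80 of it in replicate 1 and 0.25 of it in replicate 2, and Ier2 at 0.82 and 0.40 of it.

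In the order of mean TPM (Junb, Jund, Fosl2, Jun, Fos, Ier2, Egr1, Atf3, Fosb, Fosl1), neighbours were separate where the lower library of one lay above the higher library of the next. Jun and Fos overlapped, as did Ier2 and Egr1. Egr1 and Atf3 overlapped too, and their order differed, with Egr1 above Atf3 in replicate 1 and Atf3 above Egr1 in replicate 2. The other neighbouring pairs did not overlap. By fragments per 1000000 gene fragments, without length scaling, Fosl2 came first (156 in replicate 1 and 154 in replicate 2), then Jund (108 and 140) and Junb (85.2 and 118). In the mean mm9 RPKM, which is also scaled for length, Jund (18.6) lay above Junb (14.5), and Jun (6.50) lay beside Fosl2 (6.46).

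On mm10 in GENCODE M21 the genes lie apart except on chromosome 8, which holds Jund (chr8:70698949-70700616, plus strand), Ier2 (chr8:84661331-84662852, minus) and Junb (chr8:84974484-84978718, minus). Fos lies at chr12:85473890-85477273 (plus), Jun at chr4:95049034-95052222 (minus), Fosl2 at chr5:32135801-32157842 (plus), Fosb at chr7:19302696-19310051 (minus) and Fosl1 at chr19:5447547-5455946 (plus). Atf3 lies at chr1:191170296-191218039 (minus) and Egr1 at chr18:34859823-34864984 (plus). The quantified Jund transcript had 2878 bases, longer than its M21 span.

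The ratio between libraries was taken as log2((TPM replicate 1 + 0.5)/(TPM replicate 2 + 0.5)) for genes whose mean level was 1 TPM or more, which 9 of the 10 genes met. Egr1, at 1.14, was the 1 gene past a 2-fold ratio towards replicate 1, against 1.14% of 14533 genes. Atf3, at -1.08, was the 1 gene past a 2-fold ratio towards replicate 2, against 0.447% of those genes. With 9 genes tested these counts describe 2 libraries and carry no replicate check. The counting error of the log2 ratio was 0.04 for Egr1 and 0.08 for Atf3, both small beside the ratios, and it covers fragment counting alone. With a pseudocount of 1 TPM in place of 0.5 TPM, Atf3 no longer passed 2-fold.

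Ier2 (0.54) and Fosl2 (0.07) were the others higher in replicate 1, while Junb, Jund, Jun, Fos, Fosb (-0.66) and Atf3 were lower in it. The direction of each of the 9 was the same under both other scalings tried. The median ratio of the 9 genes was -0.39, beside -0.08 over all 14533 genes, of which 61.4% were lower in replicate 1. Across all genes the ratio rose with quantified length, with a Spearman correlation of 0.34, given as a description because the points share their libraries. The median length over those genes was 2383 bases. Of the members, Fosl2 (5855 bases) and Egr1 (3278 bases in replicate 1) were longer than that median and higher in replicate 1. Fos (1910 bases in replicate 1), Atf3 (1984 bases) and Junb (1840 bases) were shorter and lower. Ier2 (1522 bases) went the other way, being shorter but higher. Jun (3189 bases), Jund (2878 bases) and Fosb (3751 bases) did so too, being longer but lower. The part of length in the ratios was not tested.

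**Figure D2:**
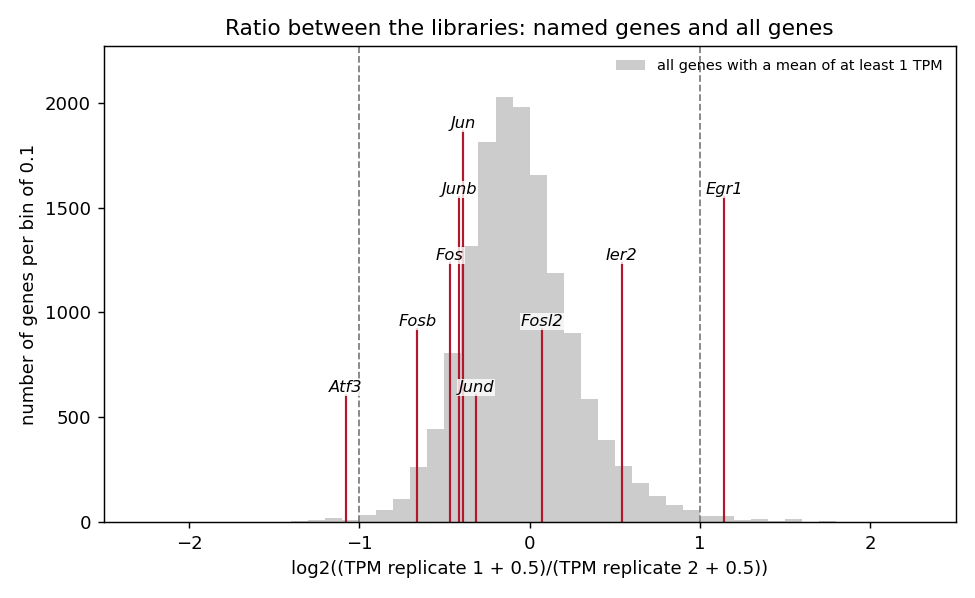
Distribution of the log2 ratio of replicate 1 over replicate 2 for all 14533 genes averaging 1 TPM or more (grey bars, number of genes per bin), with the 9 immediate early and AP-1 genes that met that mean as red lines whose height has no meaning. Dashed lines mark a 2-fold ratio. Egr1 at 1.14 and Atf3 at -1.08 lie outside them, and Jun, Junb, Fos and Jund lie together between -0.47 and -0.31.

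Cell type markers also differed between the libraries, and their part in the ratios above was not tested. In bulk tissue, fewer cells of a type and less RNA per cell cannot be told apart. The 6 superficial urothelium markers, which mark the umbrella cells that line the lumen, were all lower in replicate 1, with 3921 TPM in sum in replicate 1, 5602 TPM in replicate 2 and a median log2 ratio of -0.51. Upk1a and Upk3a, plaque proteins of these cells, led them. The 4 adipocyte markers were all lower in replicate 1 (932 TPM in sum, against 1846 TPM in replicate 2, median -1.01), and Adipoq (-1.32) and Cfd (-1.11) were past 2-fold. The 6 smooth muscle markers were all higher in replicate 1 (27456 TPM in sum, against 25032 TPM, median 0.13). The 2 of highest level, Acta2 (log2 ratio 0.06) and Tagln (0.01), were nearly equal in the libraries. The largest ratio was 0.85, for Myh11, which was named after its value was seen. All 5 macrophage markers, with Lyz2 and C1qb highest, were slightly lower in replicate 1 (563 TPM in sum, against 624 TPM, median -0.19). Their ratios of -0.23 to -0.09 lay near the median of -0.08 over all 14533 genes, of which 61.4% were lower in replicate 1. The superficial urothelium, adipocyte, smooth muscle and macrophage lists kept their directions under both other scalings.

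The other marker lists moved in both directions or held few detected genes. Genes listed for basal urothelium, with Krt7 and Krt15 highest, summed to 1370 TPM in replicate 1 and 1433 TPM in replicate 2. The difference lay mostly in Krt7 (494 and 558 TPM, log2 ratio -0.17). Krt5, Krt15 and Trp63 had log2 ratios of -0.01, 0.02 and -0.05. Fibroblast markers, led by Dcn and Col3a1, summed to 5197 and 5091 TPM, and endothelial markers, led by Egfl7 and Pecam1, to 185 and 213 TPM. Of 5 lymphocyte markers 1 reached 1 TPM in both libraries (Cd2; next Cd3d), with sums of 3.32 and 3.31 TPM. Neutrophil markers, with S100a8 and S100a9 highest, summed to 1.46 and 0.66 TPM. Of 4 skeletal muscle markers Acta1 and Ckm were detected, and they made up nearly all of the list's sum of 1634 and 1301 TPM. The rest of that list, the myosin genes Myh4 (0.00 and 0.01 TPM) and Myh1 (0.08 and 0.06 TPM), lay near 0.

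Other genes of the pathway were read against the same background of 1.14% and 0.447% past 2-fold. Of 17 upstream kinases and factors, 16 were at 1 TPM or more in both libraries and 0 passed 2-fold in either direction, with a median of 0.02. The mitogen-activated kinase gene Mapk3 had 146 TPM in replicate 1, against 157 TPM in replicate 2, and the p38 gene Mapk14 had 68.2 and 73.0 TPM. Both kinases thus stood above Jun and Fos in both libraries. Of 13 feedback inhibitors, all were at 1 TPM or more and 0 passed 2-fold. Dusp1, the phosphatase that switches off these kinases, led with 47.2 TPM in replicate 1, against 56.4 TPM in replicate 2. Nfkbia, the inhibitor of NF-kB, had 33.9 and 45.5 TPM, and Nab1, a corepressor of Egr proteins, had 28.1 and 26.5 TPM.

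Of 31 further immediate early genes, 27 were at 1 TPM or more in both libraries. Their median log2 ratio was -0.21, beside -0.08 over all genes. Of the 27, 8 were higher and 19 lower in replicate 1, where 61.4% of all genes were lower. Under both other scalings the split was 10 higher and 17 lower. One passed 2-fold: Ccn2, a secreted matrix-associated protein, had 35.9 TPM in replicate 1 and 86.7 TPM in replicate 2, a log2 ratio of -1.26. Rhob, a small GTPase (131 and 167 TPM), Zfp36l1, an RNA-binding protein that speeds mRNA decay (117 and 106 TPM), and Gadd45g, a growth arrest and stress gene (48.01 and 91.6 TPM), had the highest means. The closest relatives of Egr1 were low: Egr2 had 0.79 TPM in replicate 1 and 0.92 TPM in replicate 2, Egr3 0.63 and 0.96 TPM, and Egr4 0.02 and 0.01 TPM. These 3 were chosen after their values were seen. Egr1 was thus the one Egr gene past 1 TPM in either library.

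All 23 further bZIP genes that can pair with or compete with AP-1 subunits were at 1 TPM or more in both libraries, and 0 passed 2-fold. Atf4, the effector of the integrated stress response, had 145 TPM in replicate 1 and 254 TPM in replicate 2, above every AP-1 subunit in both libraries. Nfe2l2, the oxidative stress factor Nrf2, had 149 and 192 TPM, and Nfe2l1 had 97.5 and 88.0 TPM. The median ratio of the list was -0.08 on TPM but 0.05 on counts scaled by either other method, so it has no stable direction. Of 16 textbook AP-1 targets, 11 reached 1 TPM in both libraries and 0 passed 2-fold, with a median of -0.15. Mmp2, a matrix protease, led with 215 TPM in replicate 1 and 238 TPM in replicate 2, followed by the growth factor Vegfa (68.9 and 104 TPM) and cyclin D1 (Ccnd1, 66.3 and 58.4 TPM). The cytokine Il6, also on the list and named after its value was seen, lay at 0.04 TPM in each library. All 8 heat shock genes were detected with 0 past 2-fold and a median of -0.10. Hspa8 (782 and 988 TPM), Hspb1 (602 and 620 TPM) and Hsp90aa1 (82.4 and 78.3 TPM) led.

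**Figure D3:**
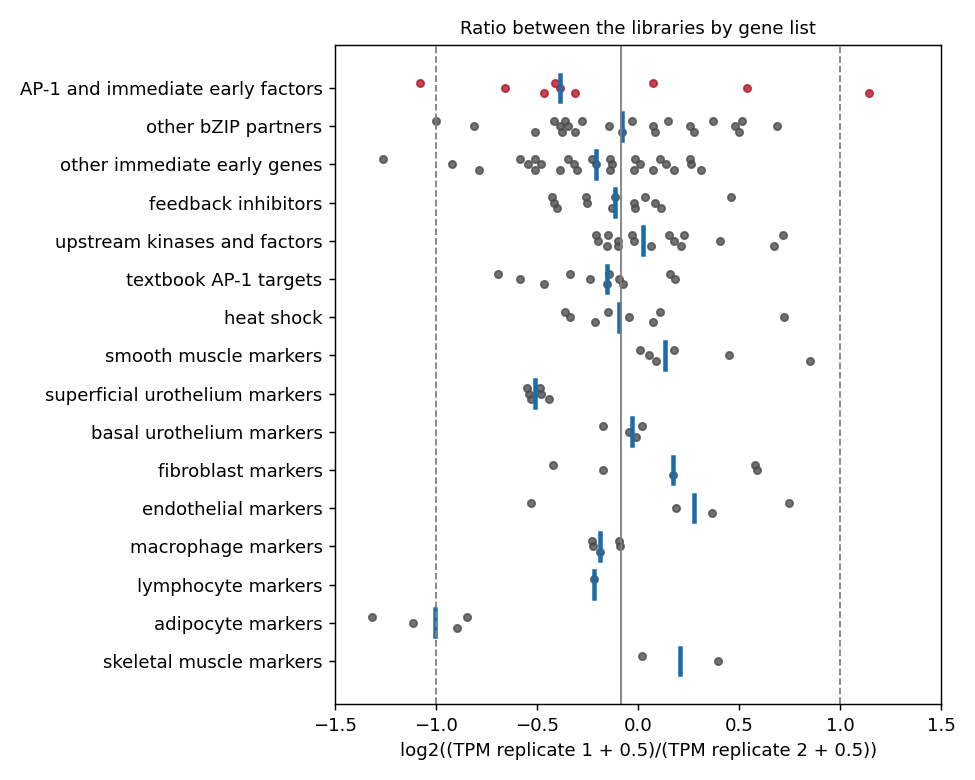
Log2 ratio of replicate 1 over replicate 2 for each gene averaging 1 TPM or more, by list (points are genes, blue bars are list medians, the grey line is the median of all genes and dashed lines mark a 2-fold ratio). The AP-1 and immediate early factors span -1.08 to 1.14, a wider range than any other list shown. The superficial urothelium, adipocyte and macrophage markers and the 1 lymphocyte marker shown lie wholly below 0.

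Transcript tables split a gene's RNA over its annotated forms. For 7 of the 10 genes a single transcript was quantified. Fos had 4: the coding transcript Fos-201 held 84.9% of gene TPM in replicate 1 and 78.8% in replicate 2, and Fos-203, a noncoding form that starts within the first intron, held 15.1% and 20.7%. Because Fos-203 is short, it held 6.36% of the Fos expected counts on average, against 17.9% of the TPM. For Egr1, the transcript of 3036 bases held 83.3% in replicate 1 and 88.8% in replicate 2, and that of 4484 bases held 16.7% and 11.2%. Of 3 Atf3 transcripts, that of 1984 bases held all fragments.

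Splice junction reads, deposited on mm9 as sums over both libraries, gave a separate reading of the same genes. The annotated Fosl2 junctions held 646 to 856 reads, the main Fos junctions 403 to 563 reads, the Egr1 junction 252 reads, the Atf3 junctions 102 to 125 reads and the Fosb junctions 28 to 33 reads. No annotated Fosl1 junction held a read. A shorter annotated Fos intron of 139 bases starts within the first intron of 754 bases and ends at the same acceptor. It held 4 of 493 reads, or 0.81% (95% exact binomial interval 0.22 to 2.06%, counting error only). Fos-203, which also starts within the first intron, was given 5.25% of Fos expected counts in replicate 1 and 7.46% in replicate 2. Whether Fos-203 uses this intron is not shown here, so the junction reads neither bear out nor contradict its estimated share. Jun, Junb, Jund and Ier2 have models of 1 exon and so have no annotated junction.

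**Figure D4:**
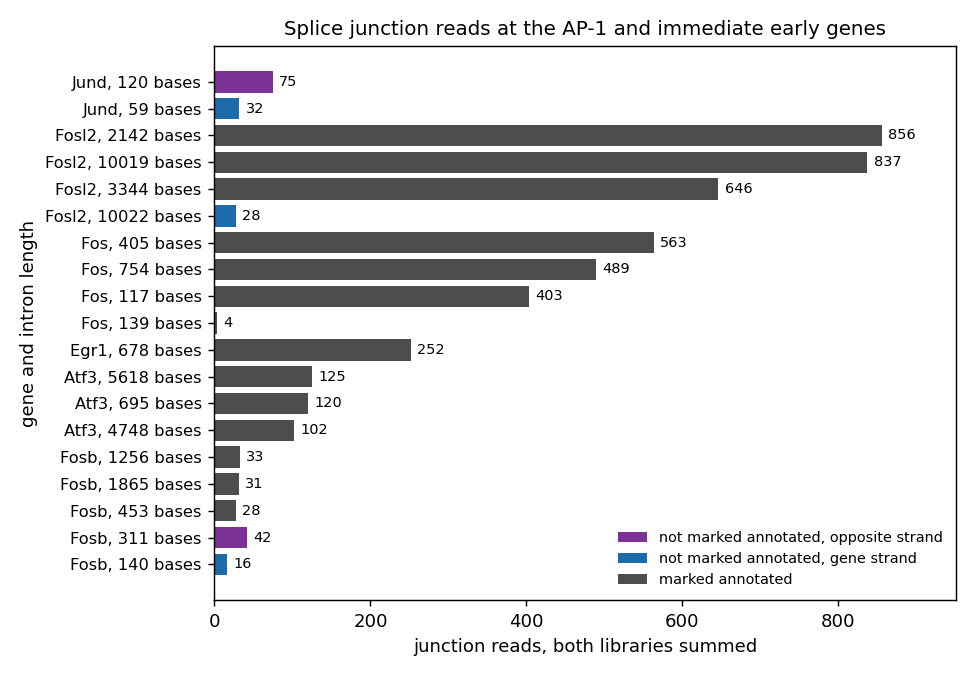
Splice junction reads summed over both libraries, as bars by gene and intron length, with genes in order of mean TPM. Grey bars carry the authors' mark for an annotated junction, blue bars do not and lie on the gene's strand, and purple bars do not and lie on the opposite strand. Annotated Fosl2 introns hold the most reads, up to 856, and the Fosb intron of 140 bases holds 16 beside 28 to 33 at the annotated Fosb introns.

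Fosb is known to give rise to a truncated protein, deltaFosB, when an intron inside the last exon is removed. One Fosb junction on the gene's strand without the authors' annotated mark spanned 140 bases and held 16 reads at 14 distinct positions. It starts 156 bases into the fourth exon on mm9. An intron of the same length, starting 156 bases into the fourth exon, is removed in the GENCODE M21 transcript Fosb-206 at chr7:19305007-19305146 on the minus strand of mm10. The sequences below, from the M21 transcripts, show why this junction matters for the protein. Capitals mark the first and last 2 bases in the intron, the donor in the unspliced RNA, and the stop codon in the spliced RNA.
Fosb intron: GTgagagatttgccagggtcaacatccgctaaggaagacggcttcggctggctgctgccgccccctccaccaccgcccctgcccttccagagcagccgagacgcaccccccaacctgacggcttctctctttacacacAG
Fosb unspliced: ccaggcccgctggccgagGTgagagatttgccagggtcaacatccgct
Fosb spliced: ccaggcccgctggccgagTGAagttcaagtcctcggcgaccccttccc

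The stop codon lies 0 bases past the join, so the spliced form codes for 237 codons before the stop, against 338 in the full-length form, and it lacks the last 101. The deposited mm10 transcript table quantified full-length Fosb-201 alone, so it gives no level for the spliced form. The 16 reads stand beside 33, 28 and 31 at the 3 annotated Fosb junctions, and they are not tied to a library. A second junction, of 311 bases, spans the same part of the exon on the opposite strand and held 42 reads at 28 positions. Its ends read GT and AG on that strand, and no M21 gene overlaps Fosb there.

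In Fosl2, the second exon had 2 acceptors 3 bases apart. The downstream one held 28 of 865 reads, or 3.24% (95% exact binomial interval 2.16 to 4.65%, counting error only), and the annotated one held the other 837. The capitals below mark the codon-sized stretch that the downstream acceptor leaves out.
Fosl2 first acceptor: ggcggcggccagcagAAGttccgggtagat
Fosl2 second acceptor: ggcggcggccagcagttccgggtagatatg

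Jund had 2 junctions without the annotated mark that held over 10 reads. That on the opposite strand spanned 120 bases with 75 reads, and its ends read GT and AG. The antisense gene Gm11175 overlaps Jund there, with 4.68 TPM in replicate 1, against 5.54 TPM in replicate 2, and one of its M21 transcripts has an intron of 120 bases. That on the Jund strand spanned 59 bases with 32 reads, and its ends read GG and GG, which is not a usual pair of splice ends. Other genes on the opposite strand overlapped Jun (Junos, 7.28 and 7.61 TPM), Junb (Prdx2, 152 and 174 TPM) and Fosl1 (Ccdc85b, 28.3 and 21.2 TPM). The libraries are stranded per the labels, but how the counts used strand is not given in the sources used here.

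Promoter sequences were available for 7 of the 10 genes from RefSeq (GRCm38.p6). Each window was the 150 bases before the RefSeq start, and motifs were searched on both strands. That start is not always the M21 gene start given above. The Jund window (chr8:70697589-70697738) does not reach the M21 start. The windows of Atf3 (chr1:191183334-191183483) and Fosl2 (chr5:32136322-32136471) lie inside the M21 gene spans. Those of Fos and Jun adjoin the M21 starts. The promoters of Fos, Jun and Atf3 are shown because each is a textbook target of CREB, ATF or AP-1 proteins. Capitals mark TGACG (in Atf3 read on the other strand as CGTCA) in Fos and Atf3, TATAAA in Fos and TGACATCA in Jun.
Fos: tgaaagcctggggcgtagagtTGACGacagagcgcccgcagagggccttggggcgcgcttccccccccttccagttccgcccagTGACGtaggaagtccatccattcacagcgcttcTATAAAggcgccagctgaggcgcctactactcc
Jun: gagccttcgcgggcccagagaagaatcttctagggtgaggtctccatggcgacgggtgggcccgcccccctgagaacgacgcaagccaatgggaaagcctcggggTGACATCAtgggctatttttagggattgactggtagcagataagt
Atf3: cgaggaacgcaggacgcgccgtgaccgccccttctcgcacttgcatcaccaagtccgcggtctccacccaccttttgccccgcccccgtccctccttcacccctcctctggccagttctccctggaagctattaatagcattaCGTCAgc

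TGACG, the core of the cAMP response element, was in 4 of the 7 windows (Fos, Fosb, Junb and Atf3), against 13.3% of 32851 RefSeq windows of the same length. The Fos copies began at -129 and -66, the Fosb copy at -60, the Junb copy at -106 and the Atf3 copy at -7. TGACATCA, the variant AP-1 site of Jun, was in 1 of 7 windows and in 2.32% of all. The Egr-type motif GCGNGGGCG was in 2 of 7, Fosl2 and Fosb, against 3.81%, and TATAAA in 1 of 7, Fos, against 7.57%. The full element TGACGTCA, which contains TGACG, was in 0 of 7 and 1.36%, TGANTCA in 0 of 7 and 4.24%, and the CArG box of serum response factor in 0 of 7 and 0.92%. Bases further upstream were not searched, and Egr1, Ier2 and Fosl1 had no promoter sequence here. The counts of 0 therefore hold for these windows alone and do not show that a gene lacks the motif. A match is a run of letters in a window and no evidence of binding, and the 7 genes were not drawn at random.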

How the data were processed

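For each library the authors deposited 1 table of genes and 1 of transcripts, made on mm10 with GENCODE M4, per the labels. Per the file headers they give an expected count, which can be fractional, and TPM in a maximum likelihood and a posterior mean version, scaled over every row. For both libraries together the authors deposited mm9 RPKM values for Ensembl 65 genes, which no label ties to a replicate, so that only their mean was used. The authors also deposited splice junction read counts on mm9, summed over both libraries. The software behind these tables is not given in the sources used here.

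Ensembl rows of the gene tables (43346 of 69691) were kept, and 42462 matched a symbol in GENCODE M21. Levels are the maximum likelihood TPM, as mean ± SD of 2 libraries. Ratios used a pseudocount of 0.5 TPM and, for calls, a mean of at least 1 TPM and a 2-fold ratio. There is 1 group, so no model was fitted and no p-value was computed. Scaling by edgeR 4.0.16 (TMM) and DESeq2 1.42.0 (median of ratios) on rounded expected counts served as alternatives. Named genes were the 10 members, the 3 of highest mean in each pathway list, those past 2-fold, and the 2 highest of each marker list, with the exceptions named; 1 gene that the rule names is not reported here. Members and lists were chosen with earlier results of these data known. Sequences came from GENCODE M21 transcripts and RefSeq promoters, and no coordinates were converted between builds. The mm9 Fosb, Fosl2 and Jund junctions were set beside M21 by their length and their distance from an exon end shared by the annotations. The mm9 contig, exon, assembled model and transcript tables were not used here. A count of 0 allows up to 3 counts, or 0.0302 CPM (counts per 1000000 on genes) in replicate 1 and 0.0286 CPM in replicate 2. Intervals and limits cover counting error only.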

Additional observations from a re-analysis of the deposited data

How the results depend on the processing

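No paired analysis was possible because the 2 libraries form 1 group. With posterior mean TPM the order of the 10 genes was unchanged. In the mean mm9 RPKM 6 of 10 genes kept their place in the order (Jund was above Junb and Jun above Fosl2), and likewise 6 in CPM of expected counts, which has no length scaling. Dropping 1 library left 8 to 10 in place. Detection at 1 TPM held for 8 to 9 genes with either library alone, for 9 at 0.5 TPM and for 7 at 5 TPM. Genes past 2-fold were Atf3 and Egr1 under every scaling and filter tried. A pseudocount of 1 TPM left 1 (Egr1), and a 1.5-fold limit added Fosb, giving 3 beside 8.52% of all genes. The Jun to Fos ratio of summed levels was 3.85 in mm9 RPKM and 1.51 in CPM, and 2.51 to 2.91 with 1 library. The leading transcript was the same for 10 to 10 of 10 genes with 1 library. No gene among the 9 reversed its direction between the libraries. The list medians of other bZIP genes, feedback inhibitors and basal urothelium changed sign under TMM (0.05, 0.01 and 0.02). The cause of these shifts was not tested. Depth limits Fosl1 and the Fosb and Fosl2 minor junctions, and 2 libraries limit everything else.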
